A study of Mus musculus with 66 samples.

Results

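The mRNA levels of 10 genes of the AMPA-type glutamate receptor were followed in cultured mouse neurons after depletion of 9 regulators of chromatin and transcription. The genes were found by symbol in a count table of 30084 gene symbols. They are Gria1, Gria2, Gria3 and Gria4, which encode the pore subunits, and the auxiliary genes Cacng2, Cacng3, Cacng8, Cnih2, Cnih3 and Shisa9. All 10 had a row, and all 10 were among the 16145 genes that passed the filter on low counts. Their lowest count in any library was 184, for Cacng8.

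The neurons came from wildtype (WT) embryos at stage e16.5, and male and female embryos were cultured apart. They received lentivirus carrying an shRNA, a hairpin transcript that lowers its matching mRNA, lentivirus with a nontargeting shRNA, or no virus. The virus was removed at day 6 of culture and RNA was taken at day 10, with doses chosen to leave about 50% of the target. Each of the 11 conditions had 3 libraries per sex, hence 6 libraries per condition and 66 in all, from polyadenylated RNA of the whole culture. The targets of the 9 knockdowns were the SET domain proteins Ash1l, Kmt2c and Setd5, the chromatin remodeller Chd8, the DNA methyltransferase Dnmt3a, the histone demethylase Kdm6b, the methyl-CpG-binding domain protein Mbd5, the Mediator-associated protein Med13l and the transcription factor Tbr1. The series asks whether loss of different regulators converges on the same transcripts and whether the sexes respond alike. The protocol speaks of triplicate wells, and nothing states that the 3 libraries of a group came from separate cultures, so p-values measure the spread between these libraries.

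AMPA receptors carry most fast excitatory transmission in the brain. Pore subunits assemble around a cation channel that glutamate opens, and receptors that hold the Gria2 subunit pass little calcium. That property rests on a codon in the pore loop of the Gria2 mRNA, which the enzyme encoded by Adarb1 edits so that arginine replaces glutamine. Proteins that bind the pore set how receptors travel and gate. The transmembrane AMPA receptor regulatory proteins (TARPs), here Cacng2 (stargazin), Cacng3 and Cacng8, anchor receptors at synapses and slow their closing. The cornichons Cnih2 and Cnih3 aid export and slow deactivation, and Shisa9 (also known as CKAMP44) shapes desensitization and short-term plasticity.

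The stretch around this codon is shown because the balance of Gria2 against the other subunits is one of the measures below. It is given for Gria1 at chr11:57243073-57243117 (plus strand), Gria2 at chr3:80706890-80706934 (minus strand), Gria3 at chrX:41610244-41610288 (plus strand) and Gria4 at chr9:4464116-4464160 (minus strand) of mm10, 45 bases each, from GENCODE M21. The capitals mark the codon, in exon 11 of 16 of the transcript used for Gria1, Gria2 and Gria3 and in exon 12 of 17 for Gria4, with 7 codons on either side.
Gria1: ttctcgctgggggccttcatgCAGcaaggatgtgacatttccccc
Gria2: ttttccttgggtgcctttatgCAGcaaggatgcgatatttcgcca
Gria3: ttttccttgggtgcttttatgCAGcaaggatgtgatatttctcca
Gria4: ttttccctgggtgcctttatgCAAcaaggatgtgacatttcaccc
The genome has a glutamine codon there in all 4 genes, CAG in Gria1, Gria2 and Gria3 and CAA in Gria4. The stretch differs from that of Gria2 at 9 bases in Gria1, 6 in Gria4 and 3 in Gria3. The count table holds reads per gene, so the edited share of Gria2 mRNA was not analysed here.

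In mm10 the pore genes lie on chromosomes 11 (Gria1, 57011387 to 57330244), 3 (Gria2, 80681450 to 80802835), X (Gria3, 41400854 to 41678601) and 9 (Gria4, 4417896 to 4796234). The TARP genes lie on chromosomes 15 (Cacng2, 77991748 to 78120028) and 7 (Cacng3, 122670492 to 122769393, and Cacng8, 3390683 to 3415648). Cnih2 lies on chromosome 19 (5092868 to 5098521), Cnih3 on chromosome 1 (181352628 to 181460641) and Shisa9 on chromosome 16 (11984113 to 12270902). The table gives 1 count per gene and library, so splice forms, including the flip and flop forms of the pore subunits, are not separated.

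Each target was at 22.9% to 44.8% of its nontargeting level over both sexes, and all 9 decreases passed the test by edgeR. Library totals ranged from 13634872 to 66074822 counts. A pair of libraries goes against its labels. Male replicate 1 of those labelled Setd5 shRNA held Setd5 at 141 CPM (counts per 1000000 counts), within the 133 to 149 CPM of nontargeting males, and Kdm6b at 23.1 CPM, below the 55.1 to 64.9 CPM of those males. Male replicate 1 of those labelled Kdm6b shRNA held Setd5 at 44.9 CPM, against 120 and 166 CPM in the other males labelled Kdm6b shRNA, and Kdm6b at 39.9 CPM, against 17.2 CPM in both. Without this pair Kdm6b was at 37.7% and Setd5 at 32.1% of the control in their knockdowns. For these knockdowns, differences from the nontargeting shRNA, from no virus and from the other knockdowns are given with and without this pair where they are named; fits with a replicate block include it. The cultures expressed the neuronal markers Map2 (1713 CPM in nontargeting libraries), Tubb3 (1372 CPM) and Snap25 (721 CPM). Astrocyte markers were present at lower levels, led by the glutamate transporter Slc1a3 (58.5 CPM), and so were the pericyte marker Rgs5 (22.5 CPM), the myelin gene Mbp (22.9 CPM) and the progenitor marker Nes (19.4 CPM). Of the microglial markers, Aif1 had 27 to 66 counts and Csf1r 5 to 24 in the nontargeting libraries, and Cx3cr1, P2ry12 and C1qa at most 12. Of the endothelial markers, Pecam1 had 14 to 88 and Flt1 22 to 54 counts, and Cldn5 at most 10.

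Levels were compared between genes per kilobase of exon and 1000000 counts (RPKM, over the union of a gene's annotated exons). With the nontargeting shRNA, Cnih2 had the highest level at 135 ± 8.93 RPKM (SD, n = 6), followed by Gria1 at 77.4 ± 11.1 RPKM. Gria2 (35.6 ± 0.924 RPKM) and Cnih3 (34.7 ± 4.16 RPKM) came next, with overlapping ranges. Gria4 (24.3 ± 2.40 RPKM) and Shisa9 (23.4 ± 5.47 RPKM) overlapped as well. Below them stood Cacng3 at 13.6 ± 1.87 RPKM and Cacng2 at 12.8 ± 1.49 RPKM, again overlapping, and then Cacng8 at 8.01 ± 0.823 RPKM and Gria3 at 7.34 ± 0.881 RPKM, which overlapped too. The lowest Shisa9 library (16.1 RPKM) was also below the highest Cacng3 library (16.6 RPKM), although Shisa9 was above Cacng3 in 6 of 6 libraries. Thus the order among neighbours was resolved for Cnih2 over Gria1, Gria1 over Gria2, Cnih3 over Gria4 and Cacng2 over Cacng8. These levels depend on the annotated exon length, which is 15548 bases for Gria2 and 1369 bases for Cnih2. Without virus the values were close, for example 130 ± 11.5 RPKM for Cnih2 and 80.6 ± 10.4 RPKM for Gria1.

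Each knockdown was set against the nontargeting shRNA over both sexes with the quasi-likelihood test of edgeR, and p-values were adjusted over all 16145 genes at a threshold of 0.05. Of the 90 combinations of a receptor gene and a knockdown, 10 passed, 9 of them lower and 1 higher, where 6.99% of all combinations of a gene and a knockdown passed (3.95% lower, 3.04% higher). The calls fell in 4 knockdowns and on 7 of the 10 genes. After Med13l shRNA 4 receptor genes were lower, where 24.1% of all genes passed in either direction and 12.3% were lower. After Chd8 shRNA 3 were lower, where 22.3% passed and 12.5% were lower. Ash1l shRNA gave 1 lower and 1 higher gene, where 6.16% of all genes passed (3.49% lower, 2.67% higher), and Tbr1 shRNA gave 1 lower gene, where 1.33% passed (1.08% lower). The 7 calls after Med13l and Chd8 shRNA were all lower, 4 of 10 and 3 of 10 genes beside 12.3% and 12.5% of all genes, and the difference of a list this short from all genes was not tested. No receptor gene passed after Dnmt3a, Kdm6b, Kmt2c, Mbd5 or Setd5 shRNA by edgeR or by DESeq2, where 1.40%, 0.966%, 0.694%, 0.663% and 5.30% of all genes passed by edgeR. In those knockdowns 0, 3, 1, 2 and 3 of the 10 receptor genes had an unadjusted edgeR p under 0.05. Without the pair of libraries that goes against its labels, 0 receptor genes passed after Kdm6b shRNA and 2 after Setd5 shRNA, where 1.26% and 7.43% of all genes did. The median log2 fold change of the 10 genes lay between −0.17 (Med13l) and 0.12 (Mbd5), against −0.01 and 0.00 for all genes in those comparisons. The 9 comparisons share the nontargeting libraries. In RNA from whole cultures, fewer cells of a type and less RNA per cell cannot be told apart.

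In 1 sex alone, with 3 libraries on each side, fewer genes passed. In males 1 receptor gene passed after Ash1l, 1 after Chd8, 2 after Med13l and 1 after Tbr1 shRNA, where 1.98%, 9.82%, 8.06% and 0.217% of all genes did. In females 1 passed after Ash1l and 1 after Med13l shRNA, where 1.10% and 10.2% of all genes did, and none after Chd8 or Tbr1 shRNA, where 9.33% and 0.0619% did.

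**Figure D1:**
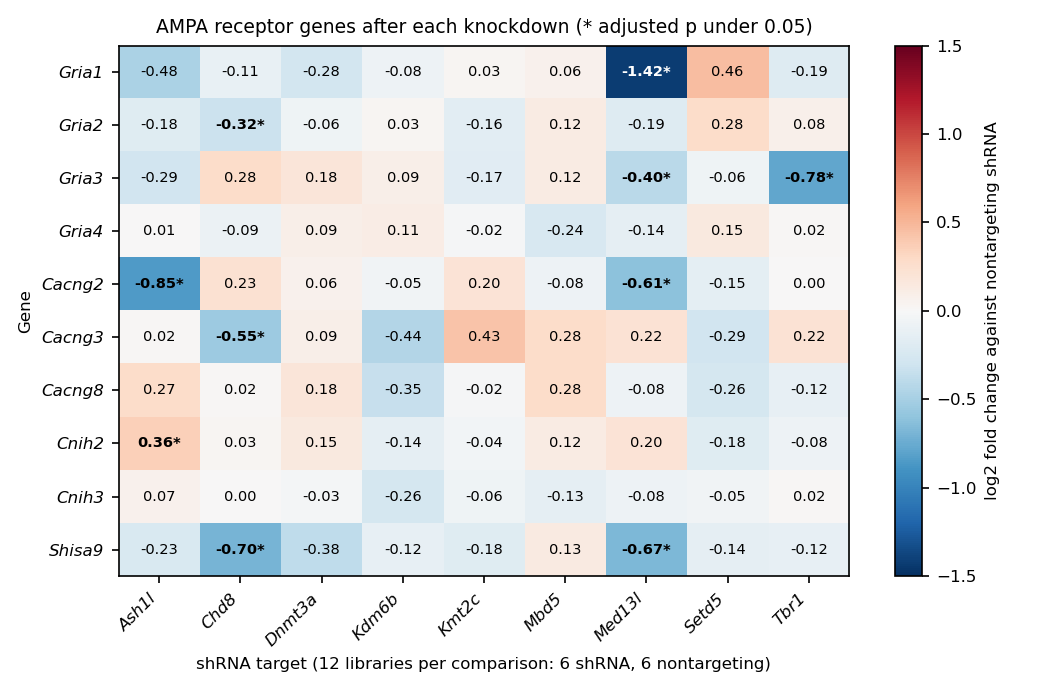
Log2 fold changes of the 10 receptor genes (rows) after each of 9 knockdowns (columns) against the nontargeting shRNA, with 6 libraries on each side. Colour gives the log2 fold change and an asterisk an edgeR adjusted p under 0.05; the darkest cell is Gria1 after Med13l shRNA at −1.42, and 10 of 90 cells carry an asterisk.

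Replicate numbers are shared between the groups. Libraries with the same number and sex deviated together in the Chd8, Dnmt3a, Kmt2c, Mbd5, Setd5 and Tbr1 comparisons, where a fit with the replicate number as a block is therefore given beside a result whose call it changes. With that block 5, 1, 1, 1, 1 and 1 receptor genes passed in these 6 comparisons, where 36.9%, 6.97%, 2.97%, 3.32%, 16.2% and 6.57% of all genes did. In the Ash1l, Kdm6b and Med13l comparisons 4, 4 and 5 of 6 same-numbered pairs had a correlation over 0.1, which fell short of every pair. The numbers were therefore not taken to pair the libraries there, although most pairs deviated together. The block let 17.2%, 7.87% and 41.5% of all genes pass in these comparisons. Over the 9 comparisons 22 of the 90 combinations passed with the block, where 15.5% of all combinations of a gene and a knockdown did.

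Among the pore subunits, Gria1 had the largest response. Gria1 encodes the subunit that is prominent in activity-dependent delivery of receptors to synapses. With the nontargeting shRNA the lowest, median and highest libraries had 394, 446 and 573 CPM, and without virus 406, 496 and 574 CPM. After Med13l shRNA they had 121, 173 and 263 CPM. Each Med13l library, with 167, 179 and 186 CPM in males and 121, 263 and 133 CPM in females, was below every control library. Gria1 fell by 1.42 on the log2 scale (SE 0.17, edgeR adjusted p = 3.1e-09), to 37.4% of the control. In male cultures the value was −1.46 (SE 0.23, edgeR adjusted p = 1.5e-05), and female cultures gave −1.38 (SE 0.23, edgeR adjusted p = 3.8e-05). Of all genes, 5.22% had a Med13l range wholly below the control range, and the call held in 12 of 12 alternatives and without any of the 12 libraries.

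In no other knockdown did Gria1 pass the test. After Ash1l shRNA the median was 308 CPM, with a log2 fold change of −0.48 (SE 0.16, edgeR adjusted p = 0.0658). That comparison passed without the library Ash1l shRNA male replicate 3 (edgeR adjusted p = 0.0271) or Ash1l shRNA female replicate 2 (edgeR adjusted p = 0.0362), against no virus (edgeR adjusted p = 0.0304, where 6.83% of all genes passed) and by DESeq2 (adjusted p = 0.0469). After Setd5 shRNA the libraries had 401, 549 and 852 CPM in males and 781, 686 and 608 CPM in females. All 3 females and male replicate 3 were above the control range. Male replicate 1, which goes against its label, and male replicate 2, at 549 CPM, lay within it. Over both sexes the difference was 0.46 on the log2 scale (SE 0.16, edgeR adjusted p = 0.0852). With the replicate block it passed (0.46, edgeR adjusted p = 0.00541). It also passed without both libraries that go against their labels (0.58, SE 0.16, edgeR adjusted p = 0.0138). Against no virus it was 0.40 (edgeR adjusted p = 0.140), and 0.51 (edgeR adjusted p = 0.0298) without that pair, where 8.37% of all genes passed. Among the libraries labelled Kdm6b shRNA, that of male replicate 1 held Gria1 at 699 CPM and the other 5 had 341 to 467 CPM. Over all 6 the log2 fold change was −0.08 (SE 0.16), and −0.23 (SE 0.16) without the pair that goes against its labels.

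Gria2, the subunit that limits calcium entry, varied least among the control libraries, from 533 to 574 CPM with a median of 554 CPM. After Chd8 shRNA the lowest, median and highest libraries had 402, 443 and 487 CPM, and all 6 lay below the controls, as they did for 7.09% of all genes. Gria2 fell by 0.32 on the log2 scale (SE 0.12, edgeR adjusted p = 0.0393), to 80.1%. The call rested on a narrow margin. It was lost without any 1 of the 6 nontargeting libraries or any 1 of the Chd8 shRNA libraries other than female replicate 1 (edgeR adjusted p from 0.0593 to 0.0946), and with no filter on low counts (edgeR adjusted p = 0.0677). After Med13l shRNA, where Gria1 was at 37.4%, Gria2 had 426, 486 and 535 CPM as lowest, median and highest, and its difference from the control was −0.19 on the log2 scale (SE 0.12, edgeR adjusted p = 0.229). After Setd5 shRNA it had 520 to 943 CPM, with a log2 fold change of 0.28 (SE 0.12, edgeR adjusted p = 0.179), and of 0.32 (edgeR adjusted p = 0.0237) without the pair of libraries that goes against its labels. Male replicate 1 of those labelled Kdm6b shRNA again stood highest, at 1001 CPM, against 454 to 545 CPM in the other 5. There the log2 fold change was 0.03 (SE 0.12) with that pair and −0.20 (SE 0.10) without it, and neither passed.

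Gria3, the X-linked pore subunit gene, was the only receptor gene called after Tbr1 shRNA. Tbr1 is a transcription factor of early-born excitatory cortical neurons. The control libraries had 66.1, 69.8 and 89.3 CPM as lowest, median and highest, and the Tbr1 shRNA libraries had 34.6, 39.9 and 62.2 CPM. All 6 Tbr1 libraries were below every control library, as was the case for 1.13% of all genes. Gria3 fell by 0.78 on the log2 scale (SE 0.12, edgeR adjusted p = 3.9e-05), to 58.3%. Males alone gave −0.88 (SE 0.17, edgeR adjusted p = 0.00516) and females −0.68 (SE 0.17), which did not pass alone (edgeR adjusted p = 0.130). The Tbr1 female replicate 2 library, at 62.2 CPM, stood apart from the other 5, at 34.6 to 42.3 CPM. None of the excitatory, inhibitory or general neuronal marker genes was called after Tbr1 shRNA, where 1.33% of all genes were. Snap25 (77.0% of the control), Gad2 (71.2%), Slc17a7 (77.1%) and Slc17a6 (79.8%) had an unadjusted edgeR p under 0.05. The excitatory list summed to 457 to 678 CPM, against 548 to 729 CPM in the controls. General neuronal markers summed to 4339 to 4854 CPM, against 4756 to 5415 CPM, and inhibitory markers to 1489 to 1909 CPM, against 1697 to 2100 CPM.

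Gria3 was also lower after Med13l shRNA and showed the opposite sign after Chd8 shRNA. The Med13l libraries had 44.1, 53.3 and 71.0 CPM as lowest, median and highest, with 71.0 CPM inside the control range. Gria3 fell there by 0.40 on the log2 scale (SE 0.12, edgeR adjusted p = 0.00917). This call was lost without nontargeting female replicate 2 (edgeR adjusted p = 0.0681) or Med13l shRNA female replicate 1 (edgeR adjusted p = 0.0667), and in each sex alone. After Chd8 shRNA, Gria3 had 77.5 to 96.9 CPM and a log2 fold change of 0.28 (SE 0.12, edgeR adjusted p = 0.0804). It was above the control library of the same sex and number in all 6 pairs, a count not made over all genes. With the replicate block this difference passed (edgeR adjusted p = 0.00723). It also passed without nontargeting female replicate 2, which had the highest control value of 89.3 CPM (edgeR adjusted p = 0.0299).

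Gria4, a pore subunit with fast kinetics, was called in no knockdown, with log2 fold changes from −0.24 to 0.15 and a median SE of 0.10. The lowest value came after Mbd5 shRNA, where the libraries had 119, 123 and 153 CPM as lowest, median and highest, against 132, 156 and 174 CPM in the controls. That difference was −0.24 (SE 0.10, edgeR adjusted p = 0.514) and was seen in all 6 pairs of the same sex and number, a count not made over all genes. With the replicate block it passed narrowly (edgeR adjusted p = 0.0426).

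**Figure D2:**
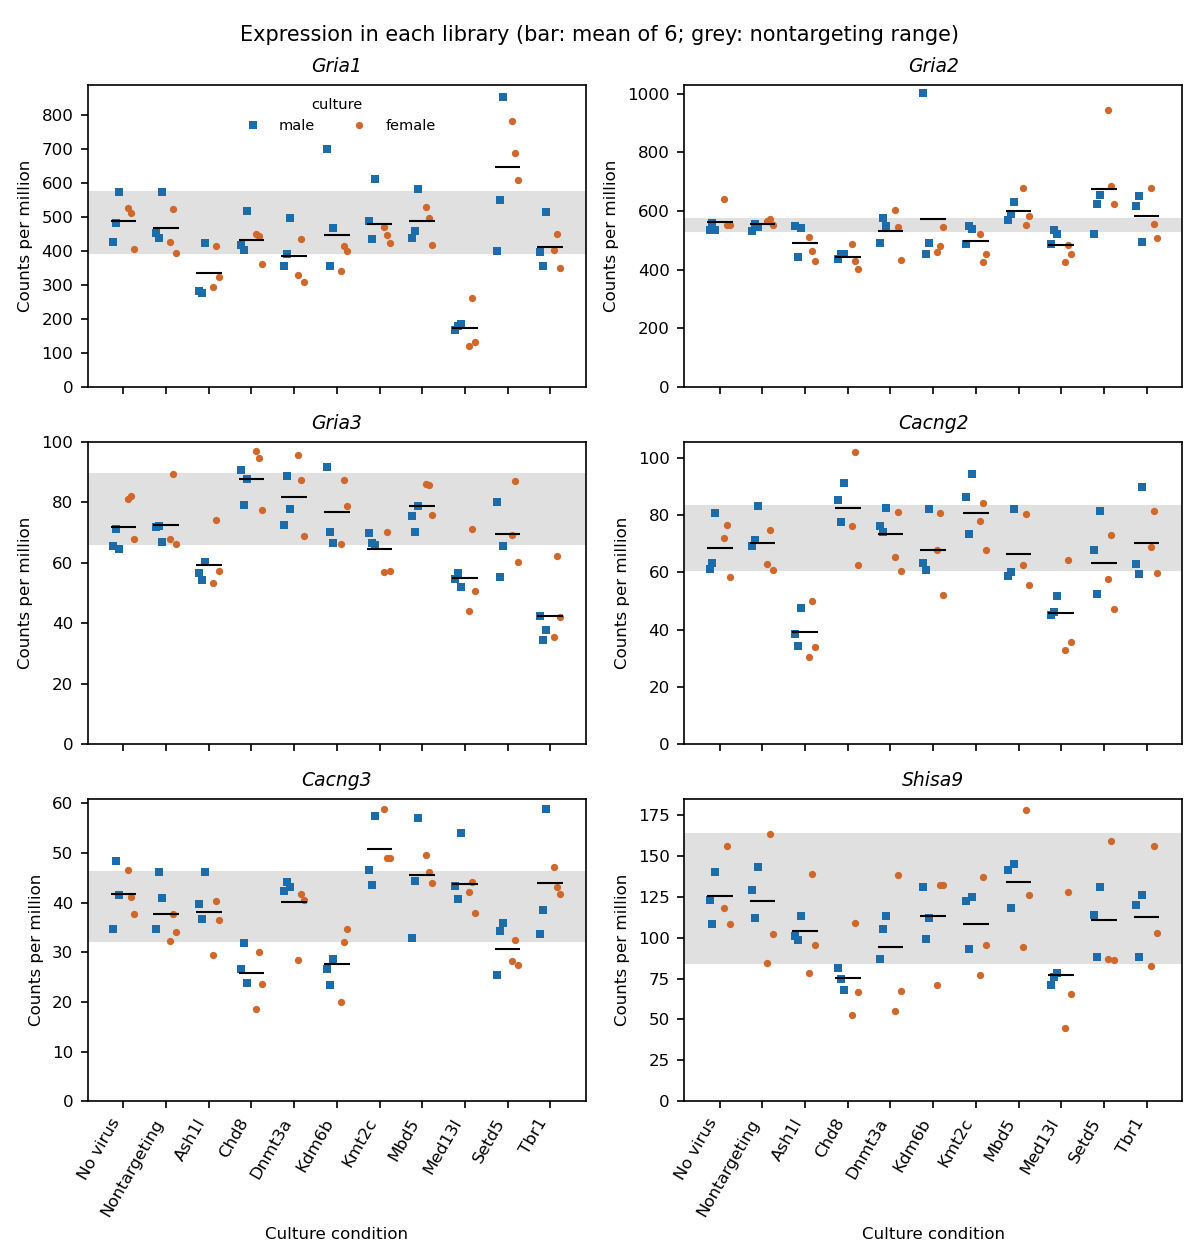
Counts per 1000000 (CPM) of 6 receptor genes in each of the 66 libraries, by condition; squares are male and circles female cultures, bars are means of 6 libraries and grey bands span the nontargeting libraries. All 6 Med13l shRNA libraries lie below the Gria1 band, all 6 Tbr1 shRNA libraries below the Gria3 band and all 6 Ash1l shRNA libraries below the Cacng2 band.

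Each knockdown was also set against the mean of the other 8, which replaces the shared nontargeting libraries, a comparison chosen after seeing the data. All 10 calls were kept, with no further call after Ash1l and Tbr1 shRNA, where 16.4% and 5.77% of all genes passed. Added calls were Gria3 (0.44) and Cacng2 (0.42) higher after Chd8 shRNA, where 34.3% of all genes passed, and Gria3 (0.33) higher after Dnmt3a shRNA, where 6.14% passed. Cacng3 (0.49) and Cacng2 (0.38) were higher after Kmt2c shRNA (6.39%), and Cacng3 was higher after Med13l shRNA (0.25, 34.8%). Gria4 was lower (−0.26) and Cacng3 higher (0.32) after Mbd5 shRNA (5.70%). After Kdm6b shRNA Cacng3 (−0.50) and Cacng8 (−0.39) were lower (10.4% of all genes). Without the pair of libraries that goes against its labels Cacng3 passed there (−0.51) and Cacng8 did not (−0.36, edgeR adjusted p = 0.0984), where 9.18% of all genes passed. After Setd5 shRNA Gria1 (0.77) and Gria2 (0.36) were higher and Cacng3 (−0.33) and Cnih2 (−0.26) lower (14.3%). Without the pair Gria1 (0.90), Gria2 (0.44) and Cnih2 (−0.23) passed and Cacng3 did not (−0.26, edgeR adjusted p = 0.128), where 14.6% of all genes passed. In the other 7 knockdowns leaving out the pair changed 1 call, Gria3 after Mbd5 shRNA, which was added. These values are log2 fold changes, with an edgeR adjusted p under 0.05 where no p is given. The mean of the other 8 includes knockdowns that moved the same gene. Examples are Gria3 after Tbr1 (−0.78), Cacng2 after Ash1l (−0.85) and Gria1 after Med13l shRNA (−1.42). Against the nontargeting shRNA, Gria3 and Cacng2 after Chd8 shRNA had 0.28 and 0.23, and Gria1 after Setd5 shRNA 0.46. None of these 3 passed there over all 6 libraries of each group.

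The balance of the pore subunits was expressed as the share of each gene in the summed counts of the 4 pore genes, which is a description with no test. With the nontargeting shRNA, Gria2 made up 44.6% ± 2.78 (SD, n = 6) of these counts and Gria1 37.4% ± 3.09. Gria4 made up 12.3% ± 1.02 and Gria3 5.80% ± 0.557. After Med13l shRNA the Gria2 share was 57.0% ± 3.81 and the Gria1 share 20.2% ± 3.59. The 6 Med13l libraries had Gria2 shares of 49.4% to 59.6%, all above the control range of 40.4% to 48.4%, and Gria1 shares of at most 26.7%, all below the control range of 34.4% to 42.6%. The summed level of the 4 genes was lower as well, at 734 to 983 CPM, against 1146 to 1345 CPM in the controls. The Gria2 share of the other 8 knockdowns overlapped the control range, with mean differences from −4.47 percentage points (Chd8) to 4.36 points (Tbr1), against 12.45 points after Med13l shRNA. It was 0.24 points after Kdm6b and −1.29 points after Setd5 shRNA, and −0.93 and −1.72 points without the pair of libraries that goes against its labels.

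Shares of the minor subunits also differed from the controls. The Gria3 share after Chd8 shRNA was 7.92% ± 0.469, and its lowest library, at 7.32%, exceeded the highest control, at 6.65%. After Tbr1 shRNA the Gria3 share was 3.57% ± 0.877, and its highest library, at 5.07%, overlapped the lowest control, at 4.97%. The Gria4 share was 10.0% ± 0.772 after Mbd5 shRNA, below the control range of 11.5% to 14.1%, and 16.4% ± 1.65 after Med13l shRNA, above that range. The level of Gria4 was not higher after Med13l shRNA, at 139 ± 13.9 CPM against 153 ± 15.2 CPM in the controls. After Setd5 shRNA the Gria4 share was 11.1% ± 2.12 and overlapped the controls, while the 5 libraries other than the one that goes against its label had 9.69% to 11.1%, below the control range. Per kilobase of exon the order of the pore genes differs, since the Gria2 model is long. Gria1 then held 53.3% and Gria2 24.8% of the nontargeting sum, and after Med13l shRNA 32.5% and 35.8%.

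**Figure D3:**
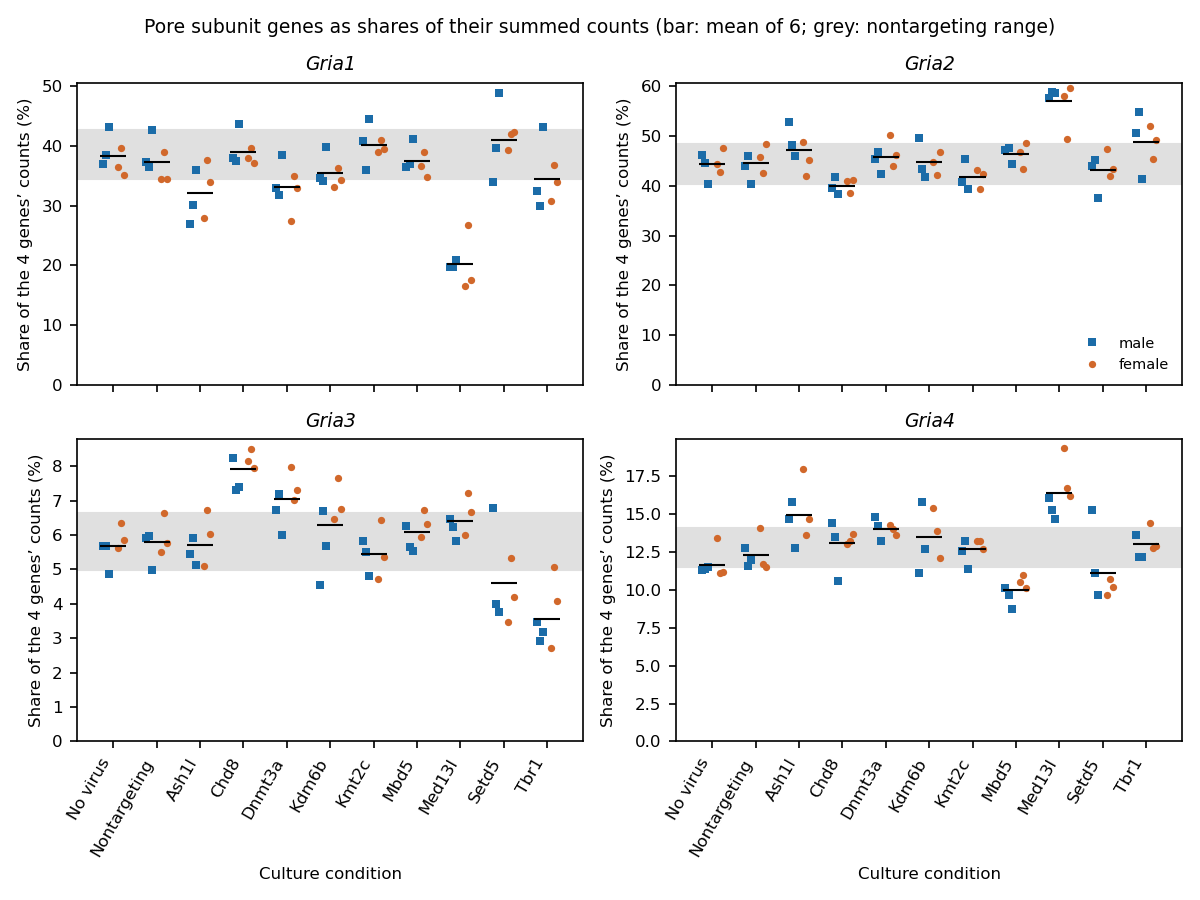
Share of Gria1, Gria2, Gria3 and Gria4 in the summed counts of these 4 genes (percent) in each library, by condition; squares are male and circles female cultures, bars are means of 6 libraries and grey bands span the nontargeting libraries. After Med13l shRNA every library lies above the band for Gria2 and Gria4 and below it for Gria1.

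Among the TARP genes, Cacng2 was lower after Ash1l and after Med13l shRNA. Cacng2 encodes stargazin, the founding TARP. The control libraries had 60.7, 70.2 and 83.3 CPM as lowest, median and highest. After Ash1l shRNA they had 30.3, 36.4 and 49.9 CPM, all below the controls, as was the case for 2.45% of all genes. Cacng2 fell by 0.85 on the log2 scale (SE 0.15, edgeR adjusted p = 8.5e-05), to 55.6%. It passed in males (−0.90, SE 0.21, edgeR adjusted p = 0.00976) and in females (−0.80, SE 0.21, edgeR adjusted p = 0.0460), in 12 of 12 alternatives and without any of the 12 libraries. After Med13l shRNA the libraries had 32.8, 45.6 and 64.3 CPM, of which only 64.3 CPM, in female replicate 2, reached the control range. Cacng2 fell here by 0.61 on the log2 scale (SE 0.15, edgeR adjusted p = 0.00177), and it did not pass in females alone (−0.58, SE 0.21, edgeR adjusted p = 0.0695). After Chd8 shRNA Cacng2 had 62.6 to 102 CPM, a log2 fold change of 0.23 (SE 0.15, edgeR adjusted p = 0.301). With the replicate block the value was 0.22 (edgeR adjusted p = 0.0165).

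Cacng3, a TARP of the forebrain, was called lower after Chd8 shRNA. The lowest, median and highest libraries had 18.6, 25.3 and 31.8 CPM, against 32.2, 36.3 and 46.2 CPM in the controls. Every Chd8 library was below every control library, as was the case for 7.09% of all genes. Cacng3 fell by 0.55 on the log2 scale (SE 0.13, edgeR adjusted p = 0.00183), to 68.4%, and it held without any of the 12 libraries. It passed in males (−0.56, edgeR adjusted p = 0.0484) and did not in females alone (−0.53, edgeR adjusted p = 0.0714). After Kmt2c shRNA Cacng3 had 43.5 to 58.9 CPM, a range that overlapped only the top of the control range. Its log2 fold change there was 0.43 (SE 0.13, edgeR adjusted p = 0.162), and with the replicate block 0.44 (edgeR adjusted p = 0.0182). After Kdm6b shRNA the median was 27.6 CPM, the highest library had 34.8 CPM and the difference was −0.44 on the log2 scale (SE 0.13, edgeR adjusted p = 0.105). It was −0.45 without the pair of libraries that goes against its labels, which did not pass either. That comparison passed against no virus (−0.59, edgeR adjusted p = 0.0156, where 1.05% of all genes passed), also without that pair (−0.60, edgeR adjusted p = 0.0168, where 1.23% did), and without the library Kdm6b shRNA female replicate 3 (−0.52, edgeR adjusted p = 0.0402). After Setd5 shRNA Cacng3 had 25.5 to 35.9 CPM and −0.29 (SE 0.13, edgeR adjusted p = 0.229), and against no virus −0.44 (edgeR adjusted p = 0.0359), where 6.31% of all genes passed. Without the pair these were −0.22 (edgeR adjusted p = 0.415) and −0.37 (edgeR adjusted p = 0.101).

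Cacng8, a TARP prominent in hippocampus, had the lowest counts of the 10 genes and was called in no knockdown. Its control mean was 18.8 ± 1.93 CPM (SD, n = 6), and its log2 fold changes ran from −0.35 after Kdm6b shRNA (SE 0.16, edgeR adjusted p = 0.366) to 0.28 after Mbd5 shRNA (SE 0.16, edgeR adjusted p = 0.884). After Kdm6b shRNA it was −0.32 (edgeR adjusted p = 0.552) without the pair of libraries that goes against its labels.

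The cornichon gene Cnih2 was the only receptor gene called higher in any knockdown against the nontargeting shRNA. The control libraries had 170, 186 and 198 CPM as lowest, median and highest, and the Ash1l shRNA libraries 207, 231 and 274 CPM. The ranges did not overlap, with every Ash1l library above every control, as was the case for 2.09% of all genes. Cnih2 rose by 0.36 on the log2 scale (SE 0.10, edgeR adjusted p = 0.0171), to 128%. The call was lost without nontargeting male replicate 1 (edgeR adjusted p = 0.0656) or female replicate 2 (edgeR adjusted p = 0.0693), and without Ash1l shRNA male replicate 3 (edgeR adjusted p = 0.0627) or female replicate 1 (edgeR adjusted p = 0.0756). It also did not pass in males (0.47, SE 0.14, edgeR adjusted p = 0.0625) or females (0.24, SE 0.14, edgeR adjusted p = 0.738) alone. Cnih3 was called in no knockdown. Its log2 fold changes lay between −0.26, after Kdm6b shRNA (SE 0.12, edgeR adjusted p = 0.360, and −0.27 without the pair), and 0.07.

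The 250 bases upstream of the annotated start are shown for Cnih2, the gene called higher, and for Gria2, from RefSeq on GRCm38.p6. Both windows begin at the start of the GENCODE model as well, as do those of Gria4 and Cnih3, which are not shown. Those shown lie at chr19:5098522-5098771 (Cnih2, minus strand) and chr3:80802836-80803085 (Gria2, minus strand). Capitals mark matches, on either strand, to the GC box GGGCGG and the CCAAT box CCAAT.
Cnih2: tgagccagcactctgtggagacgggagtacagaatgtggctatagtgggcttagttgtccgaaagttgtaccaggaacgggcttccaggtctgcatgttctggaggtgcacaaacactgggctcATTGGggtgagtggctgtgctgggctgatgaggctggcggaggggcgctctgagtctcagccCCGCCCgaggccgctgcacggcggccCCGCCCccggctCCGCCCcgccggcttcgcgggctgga
Gria2: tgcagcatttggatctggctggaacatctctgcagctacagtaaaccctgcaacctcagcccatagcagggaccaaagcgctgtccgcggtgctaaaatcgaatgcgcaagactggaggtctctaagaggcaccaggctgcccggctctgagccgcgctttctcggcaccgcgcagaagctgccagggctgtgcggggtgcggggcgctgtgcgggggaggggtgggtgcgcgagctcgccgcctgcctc
The Cnih2 window held 3 GC boxes and 1 CCAAT box, and the Gria2 window neither. Among 32851 windows of this length, 32.7% held a GC box and 33.8% a CCAAT box. The TATA box TATAAA (12.4% of all windows), the E-box CACGTG (6.02%) and the cAMP response element TGACGTCA (1.55%) matched neither window. The Cnih2 window held 17 CpG and the Gria2 window 19, against a median of 6. RefSeq windows were matched for 7 of the 10 genes. Gria1, Gria3 and Shisa9 had none in the table used.

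Shisa9 was lower after Chd8 and after Med13l shRNA, with wide spread between libraries. The control libraries had 84.4, 121 and 163 CPM as lowest, median and highest. After Chd8 shRNA the libraries had 52.5, 71.3 and 109 CPM, and after Med13l shRNA 44.7, 73.4 and 128 CPM. Both ranges overlapped the controls, although all 6 Chd8 libraries were below the control library of the same sex and number, a count not made over all genes. Female replicate 2 was the highest library in the control, Chd8 and Med13l groups alike. Shisa9 fell by 0.70 on the log2 scale after Chd8 shRNA (SE 0.22, edgeR adjusted p = 0.0163) and by 0.67 after Med13l shRNA (SE 0.22, edgeR adjusted p = 0.0214). The Chd8 call was lost without nontargeting female replicate 2 (edgeR adjusted p = 0.0937) or Chd8 shRNA female replicate 1 (edgeR adjusted p = 0.0781). The Med13l call was lost without nontargeting male replicate 3 (0.0519) or female replicate 2 (0.127), without Med13l shRNA female replicate 1 (0.115) or 3 (0.0662), and when only those 12 libraries were fitted (0.0603), each value an edgeR adjusted p. Neither call passed in either sex alone. After Dnmt3a shRNA Shisa9 had 54.9 to 138 CPM and a log2 fold change of −0.38 (SE 0.22, edgeR adjusted p = 0.608). With the replicate block it was −0.40 (edgeR adjusted p = 0.00448).

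Some of the 40 markers of cell classes tested were called in the 3 knockdowns with more than 1 receptor call, and in 3 others. Of all genes, 24.1% passed after Med13l, 22.3% after Chd8 and 6.16% after Ash1l shRNA. After Setd5, Dnmt3a and Kdm6b shRNA 5.30%, 1.40% and 0.966% did. Whether markers passed more often than all genes was not tested. After Ash1l shRNA, where Cacng2 was lower, 3 of 7 inhibitory neuron markers were lower and none higher, and the list summed to 833 to 1210 CPM, against 1697 to 2100 CPM in the controls. The 3 were Gad1 (−1.28), Slc32a1 (−1.23) and Gad2 (−0.47 on the log2 scale), which make or load GABA. Of 5 excitatory markers, Slc17a6, a vesicular glutamate transporter, was higher (0.95), and the list summed to 699 to 835 CPM, against 548 to 729 CPM. After Med13l shRNA, where Gria1 was lower, 1 of 5 general neuronal markers was lower, Syt1, the calcium sensor of vesicle release, at 19.7% of the control. That list summed to 3558 to 4235 CPM, against 4756 to 5415 CPM, and 2 of 7 inhibitory markers, Gad1 (−0.62) and Slc32a1 (−0.89), were lower. Neurod6, 1 of 5 excitatory markers, was higher there (0.45), and that list summed to 554 to 967 CPM. Of 5 astrocyte markers, Aqp4 (−1.15) and Gja1 (−1.08) were lower, the list summing to 67.8 to 172 CPM against 64.9 to 127 CPM in the controls. Pdgfra (−1.20), of the oligodendrocyte lineage, and the proliferation gene Mki67 (−1.02) were lower as well. The 4 other general neuronal markers, Rbfox3, Tubb3, Map2 and Snap25, had 91.3% to 101% of the control level after Med13l shRNA. After Chd8 shRNA 2 general neuronal markers (Map2 and Syt1), 2 excitatory markers (Slc17a7 and Slc17a6) and 2 inhibitory markers (Gad2 and Slc32a1) were lower and Tubb3 was higher. The astrocyte marker Gfap was at 28.5% of the control there (−1.81, edgeR adjusted p = 0.00960), from a control mean of 8.14 CPM. After Dnmt3a shRNA Gfap was higher (2.14) and Gad2 lower (−0.57 on the log2 scale). After Kdm6b shRNA the excitatory marker Slc17a7 was lower (−0.69, and −0.99 without the pair of libraries that goes against its labels). After Setd5 shRNA 2 inhibitory markers, Slc32a1 (−0.62, and −0.70 without the pair) and Sst (−0.90, and −0.97), were lower. The part of these marker changes in the receptor results was not tested.

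The sexes were compared for each effect. For all 90 combinations of receptor gene and knockdown, the male minus female difference of the log2 fold change did not pass (0 called by edgeR, by DESeq2 or with the replicate block), and 0 had an unadjusted edgeR p under 0.05. Over all genes 0.0186% passed this test after Setd5 shRNA and 0% after each of the others. The largest difference was 0.49 in size. The SE of these differences ran from 0.20 for Cnih2 to 0.44 for Shisa9 after Ash1l shRNA, so sex differences of that size were not detectable with 3 libraries per group. For Gria1 after Med13l shRNA the difference was −0.08 (SE 0.32) and for Cacng2 after Ash1l shRNA −0.10 (SE 0.30). Between male and female nontargeting libraries no receptor gene was called (0 by edgeR and by DESeq2, 0 at an unadjusted p under 0.05, where 0.0434% of all genes were called), with log2 differences, male minus female, from −0.16 to 0.23. X-linked Gria3 differed by −0.08 (SE 0.17), and by −0.20 (SE 0.17) without virus, where 0.0434% of all genes and no receptor gene were called. The nontargeting virus itself called no receptor gene against no virus (0 by edgeR and by DESeq2, 0 at an unadjusted p under 0.05, and 0% of all genes), with log2 fold changes from −0.15 to 0.05.

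**Figure D4:**
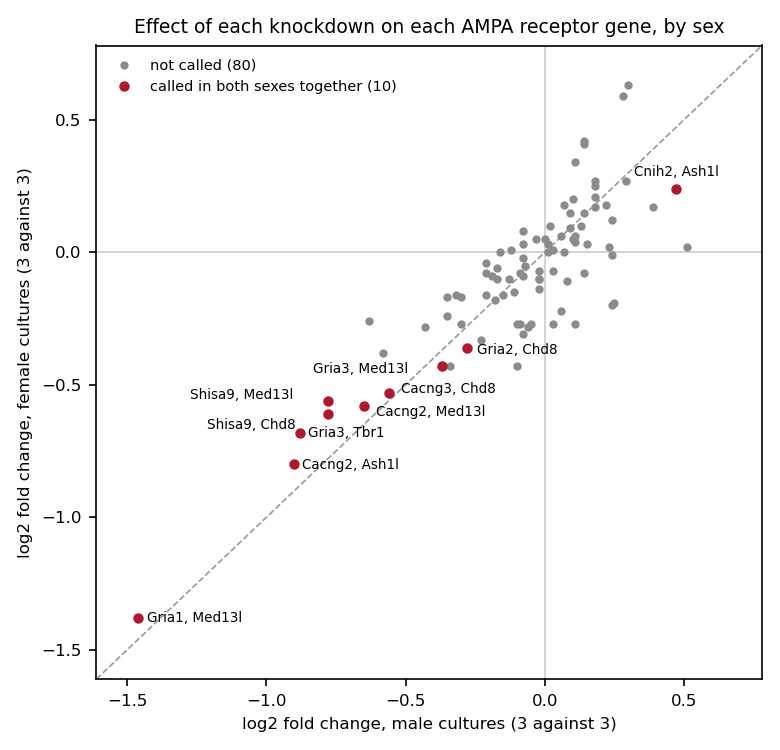
Log2 fold change in female cultures against that in male cultures for the 90 combinations of receptor gene and knockdown, each from 3 shRNA and 3 nontargeting libraries; the dashed line marks equal effects. The 10 combinations called over both sexes have the same sign in males and females, from −1.46 and −1.38 for Gria1 after Med13l shRNA to 0.47 and 0.24 for Cnih2 after Ash1l shRNA. Since they were called on the mean of both sexes, like signs were favoured in advance and do not test whether the sexes respond alike.

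A further 35 genes act on the receptor, from other auxiliary subunits to trafficking and scaffold proteins, and all 35 were tested. After Chd8 shRNA 12 of them passed (4 higher, 8 lower) and after Med13l shRNA 10 (2 higher, 8 lower), shares of 34.3% and 28.6% beside the backgrounds of 22.3% and 24.1% given above. Ash1l shRNA gave 5 (2 higher, 3 lower), a share of 14.3% beside 6.16% of all genes. Setd5 shRNA gave 3 (1 higher, 2 lower; 8.57% beside 5.30%) and Dnmt3a shRNA 2 lower (5.71% beside 1.40%). Kdm6b and Tbr1 shRNA gave 1 lower each (2.86% beside 0.966% and 1.33%). Without the pair of libraries that goes against its labels there were 3 after Setd5 shRNA (2 higher, 1 lower) and 1 lower after Kdm6b shRNA. Of the 315 combinations of a partner gene and a knockdown, 66 passed with the replicate block, against 34 without it, while the share of all combinations of a gene and a knockdown rose from 6.99% to 15.5%. For Kmt2c and Mbd5 shRNA there were none by edgeR, with 2 and 6 at an unadjusted p under 0.05 and 1 and 0 called by DESeq2. The median log2 fold change of the list was between −0.14 (Kdm6b and Med13l) and 0.01 (Mbd5).

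The list holds 9 relatives of the auxiliary genes, of which 6 were called in at least 1 knockdown. Shisa7, of the Shisa9 family, fell from 112 ± 8.13 CPM (SD, n = 6) to 62.1 ± 8.95 CPM after Chd8 shRNA (log2 fold change −0.86, SE 0.10, edgeR adjusted p = 2.6e-09). Shisa6, of the same family, fell by 1.20 on the log2 scale (SE 0.18, edgeR adjusted p = 1.6e-06) after Chd8 shRNA and by 0.69 (SE 0.18, edgeR adjusted p = 0.0376) after Dnmt3a shRNA. After Med13l shRNA Shisa6 (−0.53, SE 0.18, edgeR adjusted p = 0.0278) and Shisa7 (−0.34, SE 0.10, edgeR adjusted p = 0.00881) were lower too. Shisa6, Shisa7 and Shisa9 were thus each called lower after Chd8 and after Med13l shRNA, where 12.5% and 12.3% of all genes were lower. The share of all genes lower in both was not counted, and each Shisa9 call was lost when certain single libraries were left out. Cnih1, Gsg1l and Shisa8 passed in no knockdown. Cacng7, of the same gene family as Cacng2, fell from 175 ± 27.6 to 93.2 ± 8.41 CPM after Ash1l shRNA (−0.91, SE 0.12, edgeR adjusted p = 5.9e-07), beside the decrease of Cacng2. Cacng5 was lower after Med13l shRNA (−0.88, SE 0.28, edgeR adjusted p = 0.0161) and Cacng4 higher after Chd8 shRNA (0.27, SE 0.08, edgeR adjusted p = 0.0140). The cornichon Cnih4 fell after Ash1l shRNA (−0.69, SE 0.10, edgeR adjusted p = 1.0e-06), where Cnih2 rose, and rose after Setd5 shRNA (0.41, SE 0.10, edgeR adjusted p = 0.00553, and 0.45 with an edgeR adjusted p of 7.4e-04 without the pair of libraries that goes against its labels). It was lower after Med13l shRNA (−0.25, edgeR adjusted p = 0.0464).

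The other 26 genes of the list include factors of assembly, trafficking and anchoring. Of these 15 were called in at least 1 knockdown, and 11 in none, among them the scaffold genes Dlg1, Dlg4 and Grip1 and the trafficking ATPase gene Nsf. Cpt1c and Nptx1 were called in opposite directions in different knockdowns. Porcn, a partner of the receptor in the endoplasmic reticulum, fell to 57.5% after Tbr1 shRNA (−0.80, SE 0.10, edgeR adjusted p = 1.1e-06), the comparison in which Gria3 was lower, and was also lower after Chd8 shRNA (−0.40, edgeR adjusted p = 0.00218). Frrs1l, needed for receptor biogenesis, fell to 62.1% after Setd5 shRNA (−0.69, SE 0.15, edgeR adjusted p = 0.00293), and to 57.4% without the pair of libraries that goes against its labels (edgeR adjusted p = 4.7e-04). It was lower after Chd8 shRNA too (−0.59, edgeR adjusted p = 0.00290). Cpt1c, which binds the receptor in the endoplasmic reticulum, rose after Ash1l shRNA (0.55, SE 0.09, edgeR adjusted p = 1.3e-05) and after Med13l shRNA (0.30, edgeR adjusted p = 0.00950), and fell after Chd8 shRNA (−0.34, edgeR adjusted p = 0.00311). The anchoring protein gene Akap5 fell after Med13l shRNA (−0.72, SE 0.17, edgeR adjusted p = 0.00139), as did the scaffold gene Grip2 (−0.44, SE 0.11, edgeR adjusted p = 0.00217). Pick1, a binding partner of the Gria2 tail, fell after Chd8 shRNA (−0.29, SE 0.07, edgeR adjusted p = 0.00165). Rest, a repressor of neuronal genes, rose after Med13l shRNA from 4.96 ± 1.27 to 7.43 ± 0.917 CPM (0.58, SE 0.15, edgeR adjusted p = 0.00262). Nptx1, a secreted pentraxin that clusters receptors, fell after Dnmt3a shRNA (−0.79, SE 0.16, edgeR adjusted p = 0.00273) and after Med13l shRNA (−0.41, edgeR adjusted p = 0.0461). It rose after Ash1l shRNA (0.61, edgeR adjusted p = 0.00901) and after Chd8 shRNA (0.47, edgeR adjusted p = 0.0215). Vwc2 was called lower after Kdm6b shRNA (−0.73, SE 0.19, edgeR adjusted p = 0.0496) and after Setd5 shRNA (−0.63, SE 0.20, edgeR adjusted p = 0.0457), at 9.69 CPM in the controls. Without the pair of libraries that goes against its labels, the Kdm6b call held (−0.84, edgeR adjusted p = 0.0219) and the Setd5 call was lost (−0.55, edgeR adjusted p = 0.0979). Adarb1, which encodes the editing enzyme, passed in no knockdown. After Kmt2c shRNA it had 89.0 ± 13.0 CPM against 118 ± 14.8 CPM (−0.41, SE 0.11, edgeR adjusted p = 0.0747), and with the replicate block that difference passed (edgeR adjusted p = 5.5e-04).

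**Figure D5:**
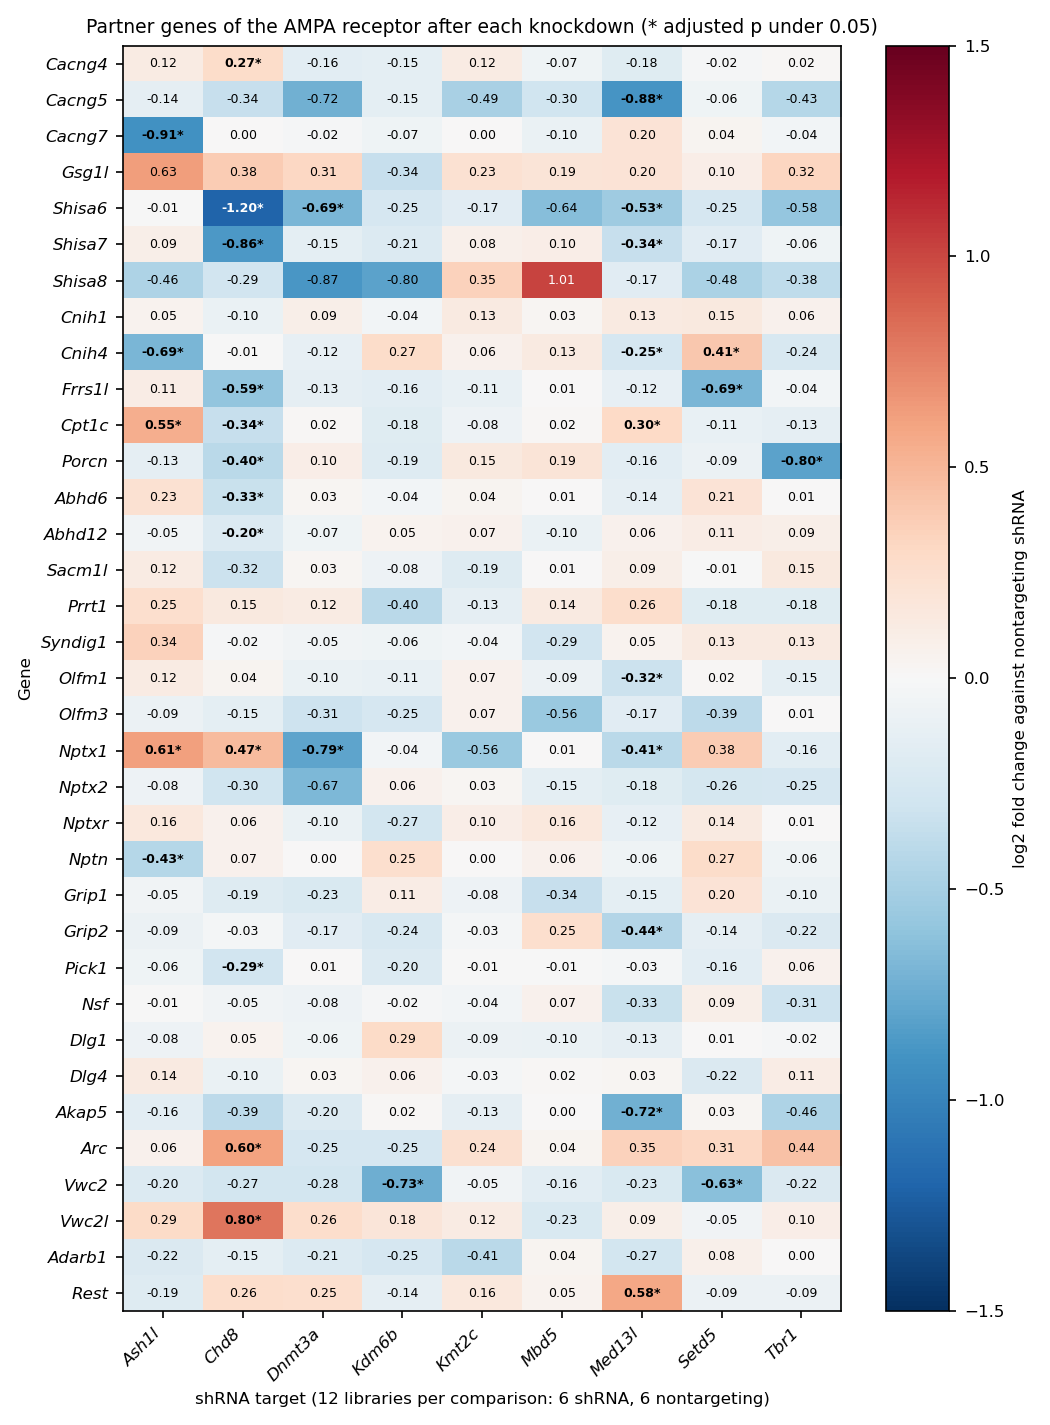
Log2 fold changes of 35 genes that act on the AMPA receptor (rows) after each of 9 knockdowns (columns) against the nontargeting shRNA, with 6 libraries on each side; an asterisk marks an edgeR adjusted p under 0.05. Calls are densest in the Chd8 column, with 12, and the Med13l column, with 10, and the columns for Kmt2c and Mbd5 have none.

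Patterns across the conditions were compared by Pearson's r over the 22 group means of log2 CPM, a description of groups that share replicate numbers. The genes most like Gria1 were Gnao1 (r = 0.94), Zdhhc9 (0.93) and Diras2 (0.93). Those most like Gria3 were Cyria (0.91), Atxn1 (0.87) and Lgalsl (0.87). Those for Gria4 included Tmem65 (0.82) and Ccnh (0.80), and for Gria2 they were Larp4b (0.80), Crkl (0.79) and Plekhn1 (0.78). No receptor gene was among those named. Between receptor genes the highest value was 0.77, for Cacng8 and Cnih2, and the lowest −0.61, for Gria1 and Cnih2. The pore genes were loosely related, from −0.06 for Gria2 and Gria3 to 0.56 for Gria1 and Gria2.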

How the data were processed

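RNA sequencing of 66 libraries was read from a table of counts per gene that the authors deposited; the submitters' processing notes name STAR, featureCounts and mm10. The 6 columns of no sample used here were left out, as were 18483 rows without a symbol (0.69% to 1.41% of counts); 149 repeated symbols were summed. The control columns carry a luciferase name and were matched to the group the labels call nontargeting. Of the values from 1 to 20, 29.5% were odd, against 49.1% of values of at least 1000, so halved counts were one alternative.

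Tests used edgeR 4.0.16 under R 4.3.3 on these counts (filterByExpr, trimmed mean of M values, robust quasi-likelihood F test), with one mean per group over all 66 libraries, after a test on simulated data. Each contrast was the mean of the male and female shRNA groups minus that of the nontargeting groups, with Benjamini-Hochberg adjustment over 16145 genes. The SE was derived from the test statistic. CPM used scaled library sizes, and log2 CPM a prior count of 2. In edgeR the adjusted p threshold was 0.05. DESeq2 1.42.0, other scaling, no filter, each sex alone, other controls and leaving out libraries were alternatives.

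Same-numbered libraries of a sex deviated together (r over 0.1 in every pair) in 6 of 9 knockdowns, and the numbers were taken to pair libraries there. Every pair of libraries in a group differed by more than sampling noise. Counting error is small beside the spread between libraries at these depths. The receptor genes, the 35 partner genes and the marker lists were chosen with earlier results of these data known. Named were the receptor genes, the targets, up to 3 partner genes per knockdown by smallest adjusted p and the 3 genes most like each pore gene, of which 1 is not reported here. Other partner and marker genes named were chosen after their values were seen.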

Additional observations from a re-analysis of the deposited data

Results flagged for a closer look

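A library was marked where its gap to the nearest of the other 5 libraries of its condition was large against the range of the 6 (Dixon's test at 95%). Of 110 sets of 6 values, 12 were marked, and chance marks about 1 in 20. Male replicate 1 of those labelled Kdm6b shRNA, which goes against its label, had 699 CPM of Gria1 (others 341 to 467), 1001 CPM of Gria2 (others 454 to 545) and 224 CPM of Gria4 (others 142 to 165). No virus female replicate 1 had 642 CPM of Gria2 (others 534 to 558) and 193 CPM of Gria4 (others 129 to 152). Female replicate 2 was marked as high for Gria3 in 3 conditions. It had 89.3 CPM with the nontargeting shRNA (others 66.1 to 72.1) and 74.1 CPM with Ash1l shRNA (others 53.3 to 60.3). With Tbr1 shRNA it had 62.2 CPM (others 34.6 to 42.3). Without a mark, it was also the highest Gria3 library with no virus (81.9 CPM). The same held with Kmt2c (70.0 CPM), Med13l (71.0 CPM) and Setd5 shRNA (87.0 CPM). Kmt2c shRNA male replicate 3 had 611 CPM of Gria1 (others 423 to 489), and Ash1l shRNA female replicate 1 had 188 CPM of Gria4 (others 140 to 153). In the Dnmt3a shRNA group, female replicate 3 had 128 CPM of Gria4 (others 159 to 175) and female replicate 1 had 28.5 CPM of Cacng3 (others 40.5 to 44.2).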

How the results depend on the processing

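No alternative reversed the direction of a called receptor gene, but all of them reuse shRNA libraries on which the calls were made. With the replicate block, the numbers of receptor genes called were 4 (Ash1l), 5 (Chd8), 1 (Dnmt3a), 3 (Kdm6b), 1 (Kmt2c), 1 (Mbd5), 1 (Setd5) and 5 (Med13l), and 66 calls were made over the partner list in the 9 knockdowns, against 34 without it, while the share over all genes rose from 6.99% to 15.5%. It changed no call of a receptor gene other than those named. In the Ash1l, Kdm6b and Med13l comparisons same-numbered libraries had a correlation over 0.1 in 4, 4 and 5 of 6 pairs. They missed the rule of every pair, although they correlated best with their own number in 5, 4 and 5. There the added genes were Gria1 (−0.49) and Gria3 (−0.29) after Ash1l shRNA and Cacng3 (−0.44), Cacng8 (−0.38) and Cnih3 (−0.28) after Kdm6b shRNA, and Cnih2 (0.19) after Med13l shRNA. In males alone the numbers were 1 (Ash1l), 1 (Chd8) and 2 (Med13l), and in females alone 1 (Ash1l), 0 (Chd8), 1 (Med13l) and 0 (Tbr1), with fewer libraries in each. Against no virus, 1 gene was called for Kdm6b and 1 for Setd5, Cacng3 in both. Without the pair of libraries that goes against its labels, 2 genes were called for Setd5. Against the mean of the other 8 knockdowns, an alternative chosen after seeing the data, the numbers were 5 (Chd8), 1 (Dnmt3a), 2 (Kdm6b), 2 (Kmt2c), 2 (Mbd5), 4 (Setd5) and 5 (Med13l). Leaving out that pair as well, also chosen after seeing the data, gave 1 (Kdm6b), 3 (Setd5) and 3 (Mbd5), with the others as before at 5 (Chd8 and Med13l each), 2 (Kmt2c) and 1 (Dnmt3a).

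Leaving out 1 library at a time gave 1 to 3 calls for Ash1l, 2 for Chd8, 0 to 1 for Kdm6b, 2 to 4 for Med13l, 0 to 1 for Setd5, 1 for Tbr1 and 0 for the others. The Gria2 share difference after Med13l shRNA stayed between 11.47 and 14.03 percentage points. Of the 90 single fold changes, DESeq2 moved 1 across the threshold and halved counts and other scaling factors none. The cause of these changes was not tested.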
